A study of Homo sapiens with 3 samples.

Results

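The tight-junction genes described here were 9 genes chosen by symbol: the claudins CLDN1, CLDN2, CLDN4, CLDN7 and CLDN12, occludin (OCLN), and the plaque scaffolds TJP1, TJP3 and CGN. They stood among 16149 genes listed in 1 or more of 3 mRNA sequencing libraries, and the rule that chose them used symbols rather than expression values. The list was drawn up with earlier results of these data known, so its counts and medians beside those of all genes are descriptive. Of the members, 8 were listed under their symbols. OCLN was not, but its Entrez gene number, 100506658, was listed in every library under a provisional symbol, LOC100506658, so OCLN was matched by that number. Its RPKM may hold reads of near-identical copies, because the treatment of reads shared by copies is not given in the sources used here.

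The libraries came from cultured hepatocellular carcinoma (HCC) cells, with 1 library per cell line. The labels name all 3 lines HCCLM3, a human HCC line. They call the parent low in metastasis ability, subclone1 higher and specific to the lung, and subclone2 able to reach both the lung and the celiac lymph node. According to the study's methods, the parental cells carried red fluorescent protein (HCCLM3-R) and had a high metastatic potential, which differs from the label, and the subclones were grown by limiting dilution from lung or lymph node metastases of orthotopic xenografts in nude mice. Each subclone was therefore 1 clone grown from a single cell, and which of the study's named clones was sequenced is not given in the sources used here. All 3 lines were grown in DMEM without a treatment. With 1 library per cell line no difference between cell lines could be tested, and every comparison below is between libraries. In bulk RNA of this kind, fewer cells that carry a transcript and less transcript per cell cannot be told apart.

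Tight junctions seal the space between neighbouring epithelial cells and keep the apical and basolateral membranes apart. Claudins form their strands, and the claudins that a cell expresses set whether the strands act as a barrier or let certain ions and water pass. Occludin joins the strands, and the zonula occludens proteins and cingulin form a cytoplasmic plaque that ties them to actin. In the liver, tight junctions close the bile canaliculi between hepatocytes.

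Promoter windows of the members are shown first. Which of the annotated starts the cells used was not measured. RefSeq (GRCh38.p14) gave 16 windows of 250 bases ending just before a transcript start for the 9 genes. Printed whole or in part are CGN and CLDN1, which were higher in both subclones, and CLDN2, which was lower in subclone2. The printed stretches lie outside annotated exons (GENCODE v29), and capitals mark GC boxes (GGGCGG, or CCGCCC on the other strand, overlapping boxes running together). For CGN the whole window chr1:151511137-151511386 on the plus strand is given, with 5 GC boxes and 76% G and C, inside the span of a longer CGN transcript. For CLDN1 the 65 bases chr3:190322476-190322540 on the minus strand are given, from 94 to 30 bases before the start, with 2 GC boxes, within the spans of CLDN1 and CLDN16. For CLDN2 the window chrX:106918110-106918359 on the plus strand is given, before 1 of its annotated starts. It lies in introns of CLDN2 and of MORC4, and it holds 0 GC boxes and 48.8% G and C.
CGN: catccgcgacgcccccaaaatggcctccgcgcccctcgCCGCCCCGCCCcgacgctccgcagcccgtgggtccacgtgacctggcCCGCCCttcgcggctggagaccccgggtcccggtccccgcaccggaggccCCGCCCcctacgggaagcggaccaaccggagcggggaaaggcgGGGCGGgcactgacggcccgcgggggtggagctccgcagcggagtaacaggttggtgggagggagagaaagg
CLDN1: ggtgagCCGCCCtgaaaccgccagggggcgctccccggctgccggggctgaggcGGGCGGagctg
CLDN2: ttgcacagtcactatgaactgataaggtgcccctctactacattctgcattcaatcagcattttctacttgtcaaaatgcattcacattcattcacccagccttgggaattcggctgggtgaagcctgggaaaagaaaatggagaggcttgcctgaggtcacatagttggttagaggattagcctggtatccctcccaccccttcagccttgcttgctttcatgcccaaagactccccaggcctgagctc

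A GC box was found in 10 of the 16 windows and in 42.6% of all 35116 RefSeq windows of the same length. Among the genes whose windows are not printed above, those of TJP1 held 0, 1, 3 and 2 GC boxes. The windows of CLDN7 held 1 and 0, those of OCLN 1 and 0, those of TJP3 1 each, that of CLDN4 1 and that of CLDN12 0. A link between GC boxes and the levels was not tested. The G and C content of the members' windows ran from 34.8% to 76%, beside a median of 58% over all windows. TATAAA, searched on both strands, was in 0 of the 16 windows and in 10.7% of all windows. TGANTCA, the AP-1 site, was in 2 of the 16 and in 6.57% of all. These were the window of CLDN4 and the CLDN2 window chrX:106899914-106900163, not the CLDN2 window printed above. The E-box CAGGTG, which reads CACCTG on the other strand and to which the SNAI and ZEB repressors are known to bind, was found in 5 of the 16 windows and in 17.5% of all windows. These 5 windows belonged to 4 genes, CLDN7, OCLN, TJP1 and TJP3. Each site is printed with its neighbouring bases on the strand of the gene, with the E-box in capitals, so that the members that hold one can be read beside their levels. The CLDN7 sites, at chr17:7262635-7262664, chr17:7262596-7262625 and chr17:7262481-7262510 on the minus strand, lie in an exon of a longer CLDN7 transcript. The third of them holds 2 E-boxes. The others are chr5:69492502-69492531 and chr5:69492645-69492674 (plus, OCLN), chr15:29969120-29969149 (minus, TJP1) and chr19:3721718-3721747 (plus, TJP3). OCLN site a lies in an OCLN exon, and OCLN site b and the TJP3 site begin in exons of their genes. The TJP1 site lies outside annotated exons.
CLDN7 site a: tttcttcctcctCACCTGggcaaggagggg
CLDN7 site b: cgacttccggttCAGGTGagtgtcccttcg
CLDN7 site c: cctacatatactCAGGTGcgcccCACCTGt
OCLN site a: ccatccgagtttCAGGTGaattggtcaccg
OCLN site b: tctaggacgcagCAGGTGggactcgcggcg
TJP1 site: gcggccggcgcgCAGGTGgcccggcctcgc
TJP3 site: gaggaagaggggCAGGTGcagccgggagct
A match of letters is a description of the sequence, and no binding was measured.

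Levels are given in RPKM, a read number scaled to both the length of the gene and the size of the library, so that they can be compared between genes of different length. Each library listed between 14703 and 14931 genes, all above 0, and from the steps of the low RPKM the read totals came to 4488825 (parent), 4609696 (subclone1) and 4725150 (subclone2). Whole numbers of reads could be recovered for all 9 members. The 95% interval beside each level is an exact Poisson interval on these reads, and that beside each fold is an exact Clopper-Pearson interval. Both cover counting error only, not the spread between cultures, and reads that come from 1 molecule are not told apart. A fold is a ratio of RPKM. A log2 ratio is taken after adding 0.1 RPKM, which understates the change of low genes, and its percentile is its place among the 11370 genes that averaged at least 1 RPKM over the libraries, to which all 9 members belong.

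Most of the members were higher in both subclones than in the parent, and CLDN2 and TJP1 departed from the rest. In subclone1, 5 of the 9 members were at least 2-fold higher than in the parent (CLDN1, CLDN2, CLDN7, TJP3 and CGN), beside 4.90% of the 11370 genes. None was at least 2-fold lower (0 of 9), beside 1.82% of all genes. In subclone2, 5 members were at least 2-fold higher (CLDN1, CLDN7, OCLN, TJP3 and CGN), beside 5.33%, and 1 was at least 2-fold lower (CLDN2), beside 2.16%. Between the subclones, 1 member was at least 2-fold higher in subclone2 (CLDN1) and 1 at least 2-fold lower (CLDN2), beside 1.42% and 1.39% of all genes. The levels of 7 members stood in the order parent, subclone1, subclone2 from low to high, an order found in 24.0% of all genes. This order takes no account of counting error. The interval of the fold between the subclones included 1 for OCLN and TJP3, as did that of OCLN in subclone1 over the parent. The comparisons with the parent share the same parent library, so that they are not independent of each other.

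The median log2 ratio of the 9 members was 1.27 in subclone1 over the parent, beside 0.0043 over all 11370 genes, with a range over the members from 0.02 to 2.77. In subclone2 over the parent the median was 1.12 beside 0.037, with a range from -1.56 to 3.87. For subclone2 over subclone1 it was 0.58 beside 0.034, with a range from -2.83 to 1.11.

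**Figure D1:**
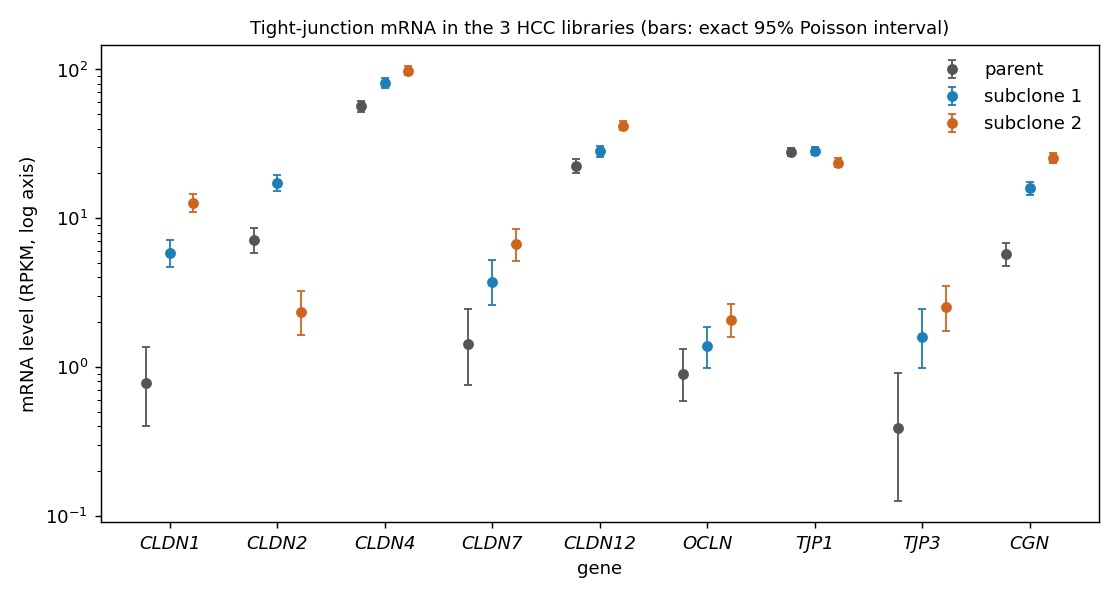
RPKM of the 9 tight-junction genes (log axis) in the parent (grey), subclone1 (blue) and subclone2 (orange), 1 library each, with exact 95% Poisson intervals as bars. In 7 genes the points climb from the parent to subclone2, CLDN2 peaks in subclone1 and is lowest in subclone2, and the 3 points of TJP1 lie between 23.6 and 28.4 RPKM.

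CLDN1, a barrier-forming claudin that hepatitis C virus also uses to enter hepatocytes, differed most from the parent. Its level was 0.774 RPKM in the parent (12 reads, 0.40 to 1.35), 5.84 RPKM in subclone1 (93 reads, 4.72 to 7.16) and 12.7 RPKM in subclone2 (207 reads, 11 to 14.5). The 3 intervals were apart from each other. Among the genes that averaged at least 1 RPKM over the libraries, CLDN1 stood at percentile 1.96 of levels in the parent. It stood at 32.1 in subclone1 and 53.8 in subclone2. Genes with a lower average were left out of this ranking. The parent's 0.774 RPKM was itself below that average, so the filter favoured a low place there. CLDN1 was 7.55-fold higher in subclone1 than in the parent (4.12 to 15.1), a log2 ratio of 2.77 at percentile 99.5. In subclone2 it was 16.4-fold higher than in the parent (9.18 to 32.2), a log2 ratio of 3.87 at percentile 99.7. The 12 reads of the parent set the width of both intervals. Between the subclones CLDN1 was 2.17-fold higher in subclone2 (1.69 to 2.80).

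CLDN2, which forms pores for small cations and water, was the member whose ratios over the parent passed 2-fold in opposite directions in the subclones. It measured 7.11 RPKM in the parent (101 reads, 5.79 to 8.64), 17.3 RPKM in subclone1 (252 reads, 15.2 to 19.6) and 2.34 RPKM in subclone2 (35 reads, 1.63 to 3.26). Subclone 1 was thus the highest library and subclone2 the lowest, with no overlap of the intervals. The gene was 2.43-fold higher in subclone1 than in the parent (1.92 to 3.09), a log2 ratio of 1.27 at percentile 96.8. In subclone2 it was 3.04-fold lower than in the parent (2.05 to 4.6), a log2 ratio of -1.56 at percentile 0.836. The difference between the subclones was the widest of any member, CLDN2 being 7.38-fold lower in subclone2 than in subclone1 (5.17 to 10.8), at percentile 0.185. CLDN2 shares 341 of its 3410 annotated exonic bases with RIPPLY1 on the opposite strand, and whether the counting used strand is not given in the sources used here. RIPPLY1 was itself listed at 0 RPKM in the parent and in subclone2 and at 0.180 RPKM in subclone1.

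CLDN7, a claudin of the basolateral membrane that binds EpCAM, followed the same order of libraries as CLDN1. Its level was below that of CLDN1 in both subclones but not in the parent. It stood at 1.43 RPKM in the parent (13 reads, 0.760 to 2.44), 3.74 RPKM in subclone1 (35 reads, 2.61 to 5.20) and 6.68 RPKM in subclone2 (64 reads, 5.14 to 8.52). The interval of the parent was apart from those of both subclones, while those of the subclones overlapped slightly. CLDN7 was 2.62-fold higher in subclone1 (1.35 to 5.40) and 4.68-fold higher in subclone2 (2.55 to 9.26) than in the parent. These are log2 ratios of 1.33 and 2.15, at percentiles 97.0 and 98.9, of which the first fell below 2-fold (0.97) with a pseudocount of 1 RPKM. Between the subclones CLDN7 was 1.78-fold higher in subclone2 (1.16 to 2.78), an interval that excludes 1 although the level intervals overlapped. The gene shares 38 of 2492 exonic bases with ELP5 on the opposite strand and 269 with a locus on its own strand.

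CLDN4, a barrier-forming claudin of many epithelia, and CLDN12, a claudin without the usual PDZ-binding tail, had the highest levels of the member claudins in every library. For CLDN4 these were 56.5 RPKM in the parent (468 reads, 51.5 to 61.8), 80.7 RPKM in subclone1 (687 reads, 74.8 to 87.0) and 98.1 RPKM in subclone2 (856 reads, 91.7 to 105). For CLDN12 they were 22.4 RPKM in the parent (371 reads, 20.2 to 24.8), 28.1 RPKM in subclone1 (477 reads, 25.6 to 30.7) and 42.0 RPKM in subclone2 (731 reads, 39.0 to 45.2). Both genes stepped upward from the parent to subclone2 without overlap of intervals, yet neither reached 2-fold. CLDN4 was 1.43-fold higher in subclone1 (1.27 to 1.61) and 1.74-fold higher in subclone2 (1.55 to 1.95) than in the parent, log2 ratios of 0.51 and 0.80 at percentiles 86.2 and 92.0. CLDN12 was 1.25-fold (1.09 to 1.44) and 1.87-fold (1.65 to 2.13) higher, log2 ratios of 0.32 and 0.90 at percentiles 77.2 and 93.6. CLDN12 shares exonic bases with several loci on its own strand, 347 of 6741 with GTPBP10 among them.

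**Figure D2:**
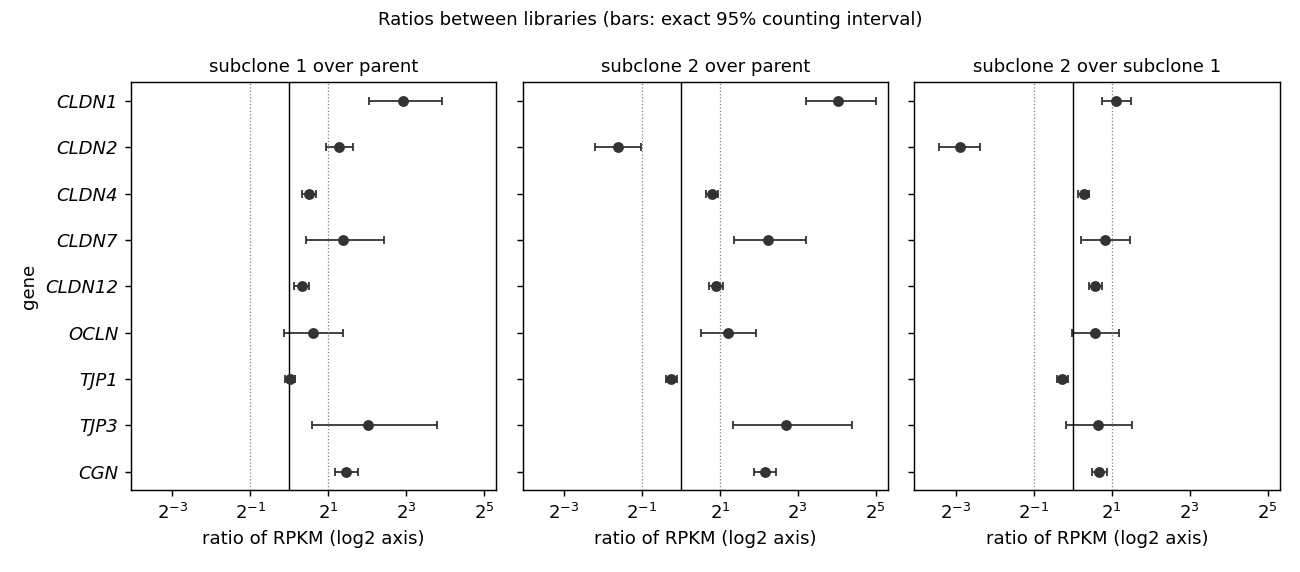
Ratios of RPKM between libraries (log2 axis) for the 9 genes, with exact 95% Clopper-Pearson intervals as bars, a solid line at a ratio of 1 and dotted lines at 2-fold. CLDN2 lies right of 1 in subclone1 over the parent and left of 1 in the other comparisons, and TJP3 has the widest intervals.

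The make-up of the claudin transcripts shifted with these levels. The 5 member claudins summed to 88.2 RPKM in the parent, 136 RPKM in subclone1 and 162 RPKM in subclone2, which was 87.3%, 90.8% and 92.1% of the RPKM of all listed claudins. CLDN4 held most of this sum in each library, with 64.0% in the parent, 59.5% in subclone1 and 60.6% in subclone2. CLDN12 held 25.4%, 20.7% and 25.9%. The share of CLDN1 went from 0.878% in the parent to 4.31% in subclone1 and 7.84% in subclone2. That of CLDN2 went from 8.06% to 12.7% and 1.45%, and that of CLDN7 from 1.62% to 2.76% and 4.12%. As a result the order of the barrier claudin CLDN1 and the pore claudin CLDN2 turned around in subclone2, but not in subclone1. There were 0.109 CLDN1 per CLDN2 in the parent (0.0544 to 0.199), 0.338 in subclone1 (0.264 to 0.431) and 5.42 in subclone2 (3.77 to 7.99), as ratios of RPKM within a library that need no scaling between libraries. CLDN4 per CLDN2 was 7.94 in the parent (6.39 to 9.94), 4.67 in subclone1 (4.04 to 5.42) and 41.9 in subclone2 (29.9 to 60.6).

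**Figure D3:**
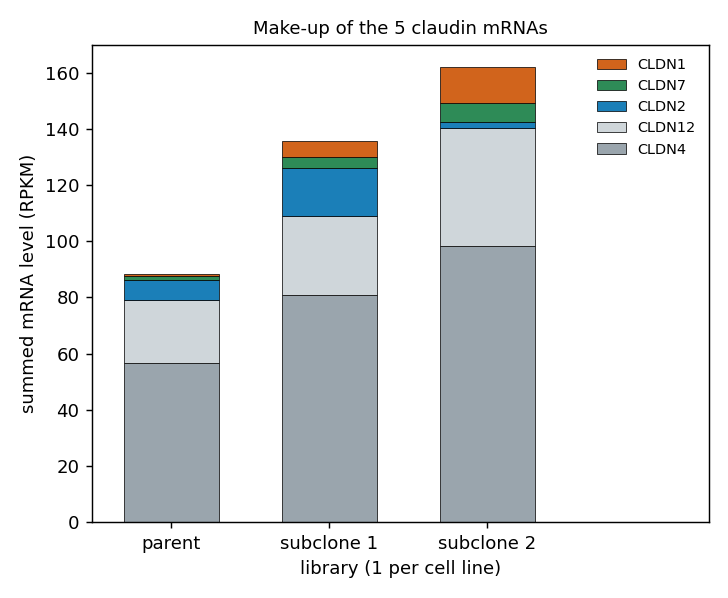
Stacked RPKM of the 5 member claudins in each library, from CLDN4 at the base to CLDN1 at the top. The columns reach 88.2, 136 and 162 RPKM, and the CLDN2 segment (blue) is widest in subclone1 and narrowest in subclone2, where the CLDN1 segment (orange) is widest.

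OCLN, the first transmembrane protein found in tight junctions, was low in all libraries. By its gene number it stood at 0.898 RPKM in the parent (26 reads, 0.587 to 1.32), 1.38 RPKM in subclone1 (41 reads, 0.989 to 1.87) and 2.07 RPKM in subclone2 (63 reads, 1.59 to 2.64). The intervals of neighbouring libraries in this order overlapped, and only those of the parent and subclone2 were apart. The fold of 1.54 in subclone1 over the parent had an interval from 0.917 to 2.61, so that a difference was not detectable at this depth. In subclone2, OCLN was 2.30-fold higher than in the parent (1.44 to 3.79), a log2 ratio of 1.12 at percentile 95.5. The fold of 1.5 between the subclones had an interval from 0.996 to 2.28. Within a library OCLN was 0.0159 of CLDN4 in the parent (0.0103 to 0.0236), 0.0171 in subclone1 (0.0121 to 0.0234) and 0.0211 in subclone2 (0.0160 to 0.0272), intervals that overlapped. Taken by symbol alone, OCLN would be at 0 in each library, and the members at least 2-fold higher in subclone2 than in the parent would be 4 rather than 5. The median log2 ratio of the members in that comparison, which is the value of OCLN, would then be 0.90 rather than 1.12. With a pseudocount of 1 RPKM the log2 ratio of OCLN in subclone2 over the parent was 0.69, below 2-fold.

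Among the plaque scaffolds, CGN and TJP3 were higher in both subclones while TJP1 lay close to its parental level. CGN, cingulin, which binds the zonula occludens proteins of the plaque, stood at 5.73 RPKM in the parent (132 reads, 4.79 to 6.80), 15.9 RPKM in subclone1 (375 reads, 14.3 to 17.5) and 25.5 RPKM in subclone2 (619 reads, 23.6 to 27.6). The 3 intervals were apart, and CGN had the narrowest intervals of the members that passed 2-fold in both subclones. It was 2.77-fold higher in subclone1 (2.26 to 3.4) and 4.45-fold higher in subclone2 (3.69 to 5.42) than in the parent, log2 ratios of 1.45 and 2.14 at percentiles 97.6 and 98.9. Between the subclones it was 1.61-fold higher in subclone2 (1.41 to 1.84).

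TJP3, or ZO-3, is a scaffold found in epithelia and the rarest member in the parent. It had 0.390 RPKM in the parent (5 reads, 0.127 to 0.909), 1.59 RPKM in subclone1 (21 reads, 0.986 to 2.44) and 2.52 RPKM in subclone2 (34 reads, 1.74 to 3.52). The interval of the parent was apart from those of the subclones, which overlapped. TJP3 was 4.09-fold higher in subclone1 (1.5 to 13.9) and 6.46-fold higher in subclone2 (2.51 to 21.2) than in the parent, so that the size of the difference was poorly fixed at this depth. Its log2 ratios of 1.79 and 2.42 lay at percentiles 98.5 and 99.1, and the first was 0.90, below 2-fold, with a pseudocount of 1 RPKM. The fold of 1.58 between the subclones had an interval from 0.891 to 2.86.

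TJP1, or ZO-1, is the scaffold that binds the claudin tails and links them to actin. Its level was 28.0 RPKM in the parent (900 reads, 26.2 to 29.9), 28.4 RPKM in subclone1 (939 reads, 26.6 to 30.3) and 23.6 RPKM in subclone2 (798 reads, 22.0 to 25.3). The parent and subclone1 overlapped almost wholly, and subclone2 was the lowest library. In subclone1 over the parent the fold was 1.02 (0.926 to 1.11), a log2 ratio of 0.02 whose sign turned when libraries were divided by ACTB (-0.11) or by GAPDH (-0.03). In subclone2 over the parent the fold was 0.842 (0.765 to 0.928), a log2 ratio of -0.25 at percentile 23.0, which stayed below 0 under every scaling tried. Relative to TJP1 in the same library, CGN was 0.205 in the parent (0.169 to 0.246), 0.558 in subclone1 (0.493 to 0.629) and 1.08 in subclone2 (0.973 to 1.20). TJP3 was 0.0139 (0.00451 to 0.0326), 0.0560 (0.0345 to 0.0862) and 0.107 (0.0734 to 0.150) of TJP1 in the same order.

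The order of the 9 levels within a library differed between the lines. CLDN4 was the highest member in each. In the parent it was followed by TJP1, CLDN12, CLDN2, CGN, CLDN7, OCLN, CLDN1 and TJP3, where CLDN2 and CGN overlapped in their intervals, as did neighbours from CLDN7 down. In subclone1 the order was TJP1, CLDN12, CLDN2, CGN, CLDN1, CLDN7, TJP3 and OCLN after CLDN4, and each of the pairs TJP1 and CLDN12, CLDN2 and CGN, CLDN1 and CLDN7, and TJP3 and OCLN overlapped. In subclone2 it was CLDN12, CGN, TJP1, CLDN1, CLDN7, TJP3, CLDN2 and OCLN, where CGN and TJP1 overlapped, as did the last 3 genes. CLDN1 thus went from the eighth place in the parent to the fifth in subclone2, and CLDN2 from the fourth to the eighth.

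**Figure D4:**
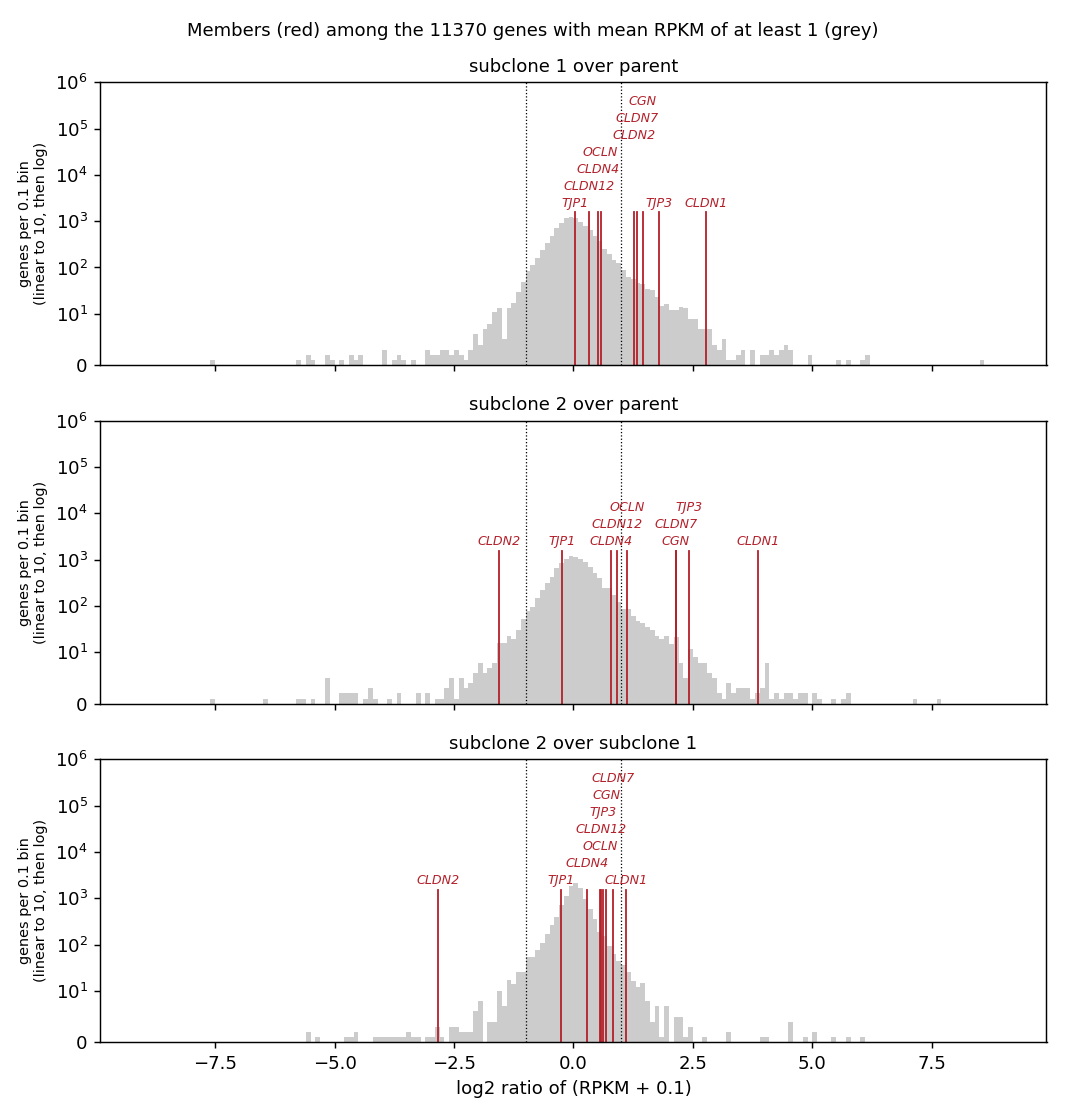
Log2 ratios of (RPKM + 0.1) of the 9 members (red lines) on the distribution of the 11370 genes averaging at least 1 RPKM (grey, genes per bin of 0.1, on an axis that is linear to 10 and then logarithmic), with dotted lines at 2-fold. CLDN1 lies in the right tail in each panel, CLDN2 right of 2-fold in subclone1 over the parent and in the left tail in the other panels, and TJP1 near 0.

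Other genes of the junction were counted in the same way. A list of 51 further tight-junction genes held 40 that were listed and 21 with an average of at least 1 RPKM. Of these 21, 1 was at least 2-fold higher (F11R) and 1 at least 2-fold lower (CLDN11) in subclone1 than in the parent, beside 4.90% and 1.82% of all genes, and 19 were neither. The counts were the same in subclone2 over the parent, with the same genes, beside 5.33% and 2.16% of all genes, and 0 of 21 passed 2-fold in either direction between the subclones. The median log2 ratio of the 21 genes was 0.13 in subclone1 and 0.15 in subclone2 over the parent, and 0.056 between the subclones. No gene passed 2-fold among the 5 scaffolds, the 5 polarity proteins and the 5 signalling proteins of the junction with an average of at least 1 RPKM.

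F11R, or JAM-A, an immunoglobulin-like adhesion molecule of the junction, stood at 11.5 RPKM in the parent (249 reads, 10.1 to 13.0), 30.003 RPKM in subclone1 (668 reads, 27.8 to 32.4) and 30.4 RPKM in subclone2 (694 reads, 28.2 to 32.8). It was 2.61-fold (2.26 to 3.03) and 2.65-fold (2.29 to 3.07) higher in the subclones, which lay at the same level. CLDN11, a claudin best known from myelin and Sertoli cells, stood at 3.07 RPKM in the parent (2.17 to 4.21), 0.550 RPKM in subclone1 (0.221 to 1.13) and 1.15 RPKM in subclone2 (0.644 to 1.90). It was 5.57-fold lower in subclone1 (2.46 to 14.8) and 2.67-fold lower in subclone2 (1.43 to 5.22). Its transcript length could not be settled, so its intervals rest on the smallest whole numbers of reads that gave its RPKM. MARVELD2, CLDN15 and CLDN23, further relatives of the members, passed 2-fold over the parent in neither subclone. For MARVELD2, tricellulin, a relative of OCLN that lies beside it in the genome, the levels were 2.91, 3.12 and 4.33 RPKM in the parent, subclone1 and subclone2. CLDN15 had 3.53, 4.05 and 5.13 RPKM and CLDN23 5.42, 8.14 and 6.87 RPKM in the same order.

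**Figure D5:**
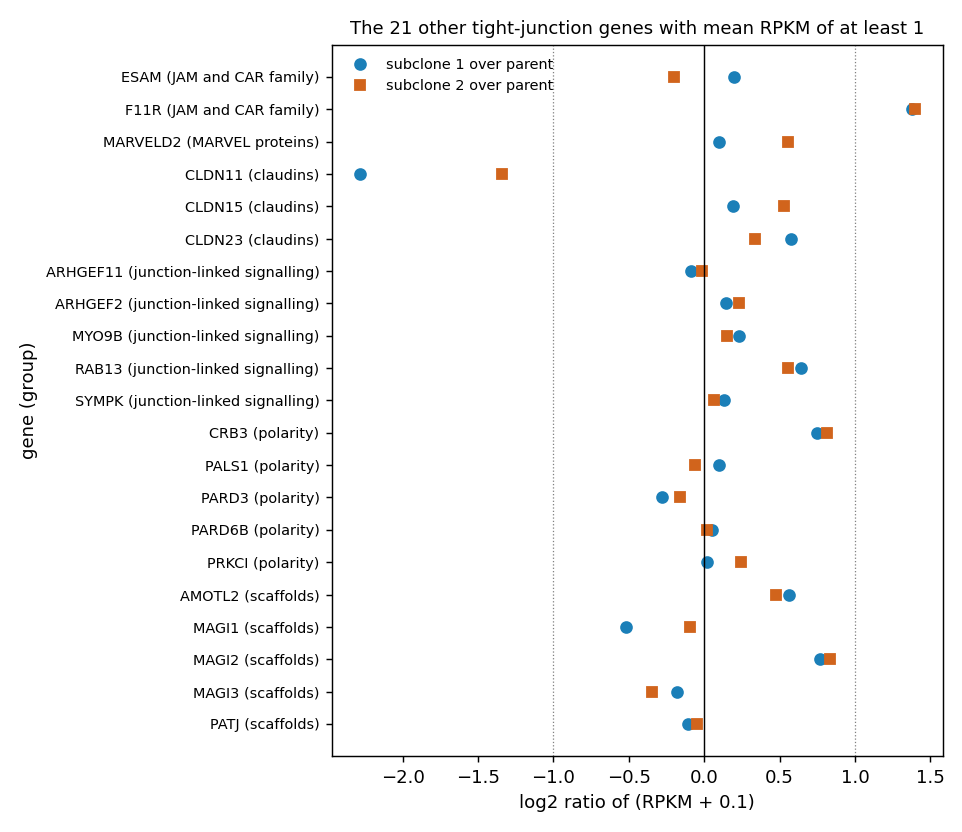
Log2 ratios over the parent of the 21 other tight-junction genes with an average of at least 1 RPKM, in subclone1 (blue circles) and subclone2 (orange squares), grouped by the kind of protein, with dotted lines at 2-fold. F11R lies right of 2-fold and CLDN11 left of it in both subclones, and the other 19 genes lie between.

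The genes beside the members were also read. Of the 18 neighbours in the RefSeq order, 15 were listed and 10 had an average of at least 1 RPKM. In subclone1 over the parent 0 of these 10 passed 2-fold, with log2 ratios from -0.48 to 0.82. In subclone2 over the parent 1 was at least 2-fold higher, METTL27 beside CLDN4 at 1.16, and the lowest, at -0.91, was MORC4, in whose span CLDN2 lies. MORC4 had 46.8, 35.2 and 24.8 RPKM in the parent, subclone1 and subclone2. METTL27 and MORC4 are named after their values were seen.

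Of 14 transcription factors known to act on epithelial junction genes, 10 were listed and 8 had an average of at least 1 RPKM. In subclone1 over the parent 1 was at least 2-fold higher, beside 4.90% of all genes. This was ZEB2, a repressor of epithelial genes, with 2.0 RPKM in the parent, 5.21 RPKM in subclone1 and 2.40 RPKM in subclone2. ZEB1, the other ZEB repressor, was lower in both subclones, with 8.13, 5.15 and 5.53 RPKM in the same order. SNAI1 had 9.96, 13.4 and 8.73 RPKM and SNAI2 8.23, 10.8 and 7.62 RPKM. In subclone2 over the parent 1 was at least 2-fold higher, beside 5.33% of all genes. This was CDX2, an intestinal homeobox factor, with 1.49, 2.18 and 3.14 RPKM in the same order. Between the subclones 1 was at least 2-fold lower in subclone2, again ZEB2, beside 1.39% of all genes. The median log2 ratio of the 8 factors was 0.25 in subclone1 and 0.32 in subclone2 over the parent. These names, too, were chosen after values were seen, and their part in the levels of the members was not tested.

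CLDN1, the member that departed furthest from the parent, was most alike in its pair of log2 ratios over the parent to LCN2, VCAM1 and SLPI, at Euclidean distances of 0.0789, 0.297 and 0.314 among the 11370 genes. This likeness rests on 3 libraries, and the ratios share the parent. LCN2 had 37.4, 269 and 543 RPKM in the parent, subclone1 and subclone2, VCAM1 2.35, 15.6 and 29.4 RPKM, and SLPI 2.24, 13.4 and 29.4 RPKM.

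Markers of the cell type also moved between the libraries. The 4 epithelial markers were all listed and summed to between 2569 and 2803 RPKM, most of it KRT8 and KRT18. CDH1, E-cadherin, went from 2.08 RPKM in the parent to 8.97 RPKM in subclone1 and 12.3 RPKM in subclone2. EPCAM was very low in each library and did not follow CDH1, with 0.257, 0.125 and 0.367 RPKM in the same order, from 2, 1 and 3 reads. The 7 hepatocyte markers summed to 17.2 RPKM in the parent, with TTR at 0, 67.8 RPKM in subclone1, with TTR at 0, and 94.2 RPKM in subclone2. Most of that difference was ALB, albumin, with 2.46, 49.5 and 68.8 RPKM, while the hepatocyte factor HNF4A had 11.7, 11.9 and 16.0 RPKM. The 3 biliary markers were all listed and summed to 198, 241 and 242 RPKM, most of it KRT19, while KRT7 was lower in the subclones, with 14.4, 3.47 and 6.04 RPKM. Of the 8 fibroblast markers 5 to 6 were listed, summing to 15.7, 31.2 and 24.3 RPKM, with PDGFRA and PDGFRB at 0 throughout. LUM held most of that sum, with 10.1, 24.0 and 21.0 RPKM, while COL3A1 had its highest level in the parent, with 4.42, 2.21 and 0.463 RPKM. Of the 4 endothelial markers 3 to 4 were listed, summing to 4.74, 11.8 and 7.56 RPKM, with CDH5 at 0 in the parent and in subclone2. PECAM1 held most of that sum, with 3.33, 9.81 and 4.46 RPKM, and KDR had 1.36, 1.93 and 3.08 RPKM. The 3 leukocyte markers summed to 75.4, 112 and 99.6 RPKM, nearly all of it CD68, with CD3E at 0 throughout and PTPRC at 0 in the subclones. The part of these markers in the levels of the tight-junction genes was not tested.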

How the data were processed

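For each of the 3 cultured lines, 1 Illumina TruSeq library was prepared from total RNA taken up in Trizol. Per library, the authors deposited RPKM by gene, listing those above 0, and unlisted genes were taken as 0. The submitters' processing notes name the build hg19. The aligner, the counter, the annotation and the treatment of strand and shared reads are not given in the sources used here. The members and all gene lists were chosen with earlier results of these data known.

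Library totals were recovered from the RPKM steps: 653 genes had as many reads in subclone1 as in the parent and 625 in subclone2, and 93.9% of 1397 low genes fell on the common step. A gene's reads were set so that its length came within 10% of a GENCODE v29 transcript. These steps were tested on simulated data. Log2 ratios used a pseudocount of 0.1 RPKM, and counts and percentiles were over genes averaging at least 1 RPKM. Calls were a ratio of at least 2-fold, with no test, since each group is 1 library. All members were named. A result for 1 further gene of the list is not reported here. Other tight-junction genes were named where they passed 2-fold in a subclone or were relatives of a member, averaging at least 1 RPKM, as were the 3 genes most alike to the member with the largest ratio. Alternatives were a pseudocount of 0.01 or 1, a common RPKM sum for all libraries, median centring, scaling by the upper quartile, ACTB or GAPDH, an average of at least 5 RPKM or no filter, a 1.5-fold threshold and, added after the data were seen, OCLN by symbol alone. Promoter windows and neighbours came from RefSeq (GRCh38.p14), a different build from that of the RPKM. Python 3.11.15, numpy 2.4.6, pandas 2.3.3, scipy 1.17.1 and matplotlib 3.10.9 were used.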

Additional observations from a re-analysis of the deposited data

Results flagged for a closer look

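In 2 genes the log2 ratios over the parent had opposite signs in the subclones, and the difference was not tested, since each line had 1 library. CLDN2 had 1.27 in subclone1 and -1.56 in subclone2. TJP1 had 0.023 and -0.25, of which the first changed its sign with the scaling.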

How the results depend on the processing

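Of the 189 log2 ratios of the members under 7 alternatives, 187 stayed within their counting interval and 0 reversed as calls. The other 2 were those of CLDN1 with a pseudocount of 1, at 1.95 in subclone1 and 2.95 in subclone2 over the parent. With that pseudocount the median of the members in subclone1 over the parent was 0.90, and 3 members rather than 5 were at least 2-fold higher, without CLDN7 (0.97) and TJP3 (0.90). In subclone2 over the parent 4 rather than 5 were, without OCLN (0.69), and the median of the members was 0.88. All genes at least 2-fold higher and lower were then 347 and 117 in subclone1 over the parent, 380 and 150 in subclone2 over the parent, and 80 and 77 between the subclones. With no filter on RPKM these pairs were 1523 and 884, 1553 and 941, and 842 and 902. Where genes had to average at least 5 RPKM the pairs were 233 and 71, 253 and 93, and 43 and 46, and the members higher were 3 in subclone1 and 2 in subclone2 over the parent, with fewer members counted. A 1.5-fold threshold gave 1317 and 848, 1444 and 830, and 540 and 467, and 4 members were higher in subclone2 than in subclone1. Division by ACTB gave 329 genes lower in subclone1 than in the parent, shifted the median of all genes to -0.13 in that comparison and to 0.16 between the subclones, and moved the share of calls that were higher from 72.9% to 57.6% and from 50.5% to 64.8%. Division by GAPDH gave 63.4% and a median of 0.15 between the subclones. No paired analysis was possible because each group has 1 library, so that none could be left out either. Depth limits most the genes with few reads in the parent, TJP3 with 5, CLDN1 with 12 and CLDN7 with 13.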
